A study of Mus musculus with 6 samples.

Results

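Interleukin 1 (IL-1) signaling and the NLRP3 inflammasome were followed through 10 genes, taken from a fixed list by their role in the pathway: Il1a, Il1b, Il1rn, Il1r1, Il1r2, Il1rap, Il18, Il18bp, Nlrp3 and Casp1. The list was chosen with earlier results of these data known. All 10 were in the gene list of the files, which holds 32285 genes. Their transcripts were counted by droplet single-cell RNA-Seq of cells isolated with CD45 beads from B16-F10 tumors, a mouse melanoma line of C57BL/6 origin. The tumors were grown from 250000 cells injected into female C57BL/6 mice of 6 to 10 weeks. The αPD-1 group (3 samples) was given 150 µg of anti-PD1 antibody 3 times a week from day 7, with daily injections of 200 µl of vehicle (5% DMSO in PBS) from day 6. The αPD-1 + corin group (3 samples) was given the same antibody and, in place of vehicle, 200 µg of Corin each day from day 6. Corin is a dual inhibitor of the deacetylase and demethylase activities of the CoREST complex. Both groups carried the antibody, so the comparison is of corin added to αPD-1, and no untreated tumors were measured in these files. The study used 10 mice in each arm. How many of them stand behind a sample is not in the labels, so p-values measure the spread between these samples.

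IL-1α and IL-1β are the agonists of the family, and both act through the receptor IL1R1, which needs the accessory chain IL1RAP to signal. IL1RN is a secreted antagonist that occupies IL1R1, IL1R2 is a decoy receptor without a signaling domain, and IL18BP neutralizes IL-18. Pro-IL-1β and pro-IL-18 are cut by caspase 1, which is activated on the inflammasome that NLRP3 assembles. In tumors, IL-1β from myeloid cells is known for drawing in neutrophils and for acting on fibroblasts.

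The genes lie on 6 chromosomes (GRCm39, GENCODE vM39, matched by gene ID), and each is annotated as protein coding. The gene list of the files holds some symbols older than that annotation, such as Il1f9 for Il36g, so the counts may rest on other gene models than these. Il1a (chr2:129140291-129152098) and Il1b (chr2:129206490-129213059) are neighbors on the minus strand, and Il1rn (chr2:24226865-24241506) lies on the plus strand of the same chromosome. Il1r2 (chr1:40113239-40164391) and Il1r1 (chr1:40264174-40356417) lie side by side on the plus strand. The remaining plus-strand genes are Il1rap (chr16:26400350-26548880), Il18 (chr9:50466081-50493633), Casp1 (chr9:5298508-5307290) and Nlrp3 (chr11:59432394-59457782), and Il18bp (chr7:101638490-101668206) is on the minus strand. Il1b overlaps the antisense genes Gm14023 and Il1bos, Il18bp overlaps Numa1, and Il18 overlaps Bco2 and Tex12, all on the opposite strand. The strand setting of the counting was not given in the sources used here. The values are of whole genes.

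Promoters are shown for the 2 members that passed the test in monocytes, Il1a and Nlrp3, and for Il1b, whose level over cell classes and samples was most like that of Nlrp3. Each line gives the 250 bases before the RefSeq start site (GRCm38.p6), 5′ to 3′ on the strand of the gene, with capitals on the letters of TATAAA, of the PU.1 core GAGGAA and of the AP-1 site TGANTCA, searched on both strands. The windows are chr2:129309973-129310222 for Il1a, chr2:129371140-129371389 for Il1b and chr11:59542436-59542685 for the downstream one of 2 start sites of Nlrp3.
Il1a: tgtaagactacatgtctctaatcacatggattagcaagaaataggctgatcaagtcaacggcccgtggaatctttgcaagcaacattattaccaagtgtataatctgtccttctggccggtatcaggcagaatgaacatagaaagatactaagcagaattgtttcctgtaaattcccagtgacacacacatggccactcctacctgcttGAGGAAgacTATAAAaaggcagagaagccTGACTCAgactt
Il1b: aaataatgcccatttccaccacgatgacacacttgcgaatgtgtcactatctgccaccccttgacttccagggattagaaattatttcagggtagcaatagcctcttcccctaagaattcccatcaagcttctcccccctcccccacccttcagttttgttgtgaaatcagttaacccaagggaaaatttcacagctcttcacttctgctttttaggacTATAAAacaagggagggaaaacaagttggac
Nlrp3: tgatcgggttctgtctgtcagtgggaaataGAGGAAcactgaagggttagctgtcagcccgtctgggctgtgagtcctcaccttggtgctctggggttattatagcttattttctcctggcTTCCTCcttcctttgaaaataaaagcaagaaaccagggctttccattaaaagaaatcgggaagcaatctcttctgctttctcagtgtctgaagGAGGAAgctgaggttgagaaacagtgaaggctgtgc
The Il1b window held TATAAA 31 bases before the start, and the Il1a window held it 32 bases before the start. Il1a also had GAGGAA 41 bases and TGACTCA 12 bases before its start. The Nlrp3 window had 3 matches to GAGGAA and no TATAAA. These short matches are common. GAGGAA was in 23.3% of 32851 promoter windows of this length, TATAAA in 12.4%, TGANTCA in 6.75%, the C/EBP letters TTGCNNAA in 9.56% and an NF-κB consensus in 7.25%. On either strand, 3 of the 10 members had TATAAA, 3 had GAGGAA, 2 had TGANTCA, 2 had TTGCNNAA and 2 had the NF-κB consensus in at least 1 of their windows.

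The files held 52899 barcodes with 52281422 to 84276739 unique molecular identifiers (UMIs) per sample, and 28865 cells passed the filters. Pairs of samples shared 10 to 32 barcodes, at most 0.457% of the smaller sample. Clusters were named from fixed marker genes, with the 10 members left out of the genes used for clustering. The kept cells were not only immune cells, since clusters with 8 or more melanoma markers and a cluster with 9 fibroblast markers were present. The make-up of the samples differed between the groups. Neutrophils were 0.321%, 0.191% and 0.255% of the kept cells with αPD-1 and 6.34%, 27.6% and 1.42% with αPD-1 + corin. Macrophages were 19.6% ± 3.46 against 35.5% ± 14.7 (SD, n = 3) and B cells were 20.9% ± 3.97 against 0.696% ± 0.495. Of 8 classes, 7 had shares that did not overlap between the groups, with p = 0.1 by the two-sided exact permutation test, the smallest that 3 against 3 samples allow.

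The levels that follow are CPM, the UMIs of a gene summed over the cells of a class in a sample, divided by all UMIs of that class and scaled as CPM usually are. They compare a gene between classes or samples, not genes with each other. Cell classes came from clusters of the same cells, so the order of classes is a description without a test.

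Il1b was highest in neutrophils. It stood at 3422 and 2360 CPM in the αPD-1 samples with at least 10 such cells, at 4595 CPM in the αPD-1 sample with 7, and at 2402, 4352 and 2381 CPM with αPD-1 + corin. Monocytes came next, at 310 to 422 CPM with αPD-1 and 502 to 796 CPM with αPD-1 + corin. Dendritic cells (167 to 548 CPM over the 6 samples) and macrophages (102 to 208 CPM) overlapped in level. Fibroblasts and melanoma cells had at most 69.3 CPM, and B cells had 0 to 175 CPM, the highest from 48 cells.

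The UMIs of Il1a were few. Neutrophils had 81.0 ± 38.8 CPM (SD, n = 5), and macrophages stood at 17.3 to 35.1 CPM. Il1a was at 0 UMIs in the melanoma cells and fibroblasts of the 3 αPD-1 samples.

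Il18, which unlike Il1b is made by many resting cells, had its highest levels in monocytes at 44.7 to 69.6 CPM and macrophages at 25.3 to 59.6 CPM, and the ranges overlapped. Neutrophils had 42.2, 0 and 0 CPM with αPD-1 and 39.7, 34.5 and 22.6 CPM with αPD-1 + corin, from too few αPD-1 cells to tell the groups apart.

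The antagonist Il1rn was highest in neutrophils (687 ± 417 CPM, SD, n = 5), with macrophages at 127 to 238 CPM and monocytes at 68.2 to 145 CPM. The decoy receptor Il1r2 was also highest in neutrophils (921 ± 306 CPM, SD, n = 5). Its next class was not monocytes but dendritic cells, at 99.3 to 382 CPM. Within these, the cluster led by Ccl22, Xcr1 and Cd209a held 112 to 455 CPM, while the Siglech cluster, which has plasmacytoid dendritic cell markers, held at most 36.1 CPM. Il18bp was highest in macrophages (26.1 to 87.2 CPM), and its range overlapped with that of neutrophils and monocytes.

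Il1r1 was a fibroblast gene in these samples. Fibroblasts had 343, 287 and 254 CPM with αPD-1 and 242, 286 and 406 CPM with αPD-1 + corin. No other class passed 16.2 CPM in any sample. After each cell was thinned to 1000 UMIs, 20.3% of fibroblasts with αPD-1 and 20.4% with αPD-1 + corin had an Il1r1 UMI, against 0.363% and 0% of B cells, a class that should lack the gene. Before thinning the shares were 61.1% and 60.1% of fibroblasts (median depths 8108 and 7334 UMIs) and 0.888% and 0% of B cells (1715 and 1341 UMIs). Il1rap, the accessory chain, was highest in neutrophils (252 ± 88.4 CPM, SD, n = 5) and at most 41.8 CPM in every other class, with fibroblasts at 20.0 to 40.1 CPM.

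Nlrp3, like Il1b, had neutrophils first (513 ± 115 CPM, SD, n = 5), then monocytes at 99.9 to 201 CPM, macrophages at 53.1 to 115 CPM and dendritic cells at 35.6 to 94.8 CPM. Casp1 did not. It was highest in monocytes (52.8 to 125 CPM), and neutrophils, with 26.3 to 45.2 CPM in the 5 samples with at least 10 of them, overlapped with macrophages (39.4 to 57.4 CPM) and dendritic cells (26.1 to 48.7 CPM). Melanoma cells had at most 3.79 CPM of Casp1. The neutrophil means leave out the αPD-1 sample with 7 such cells.

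**Figure D1:**
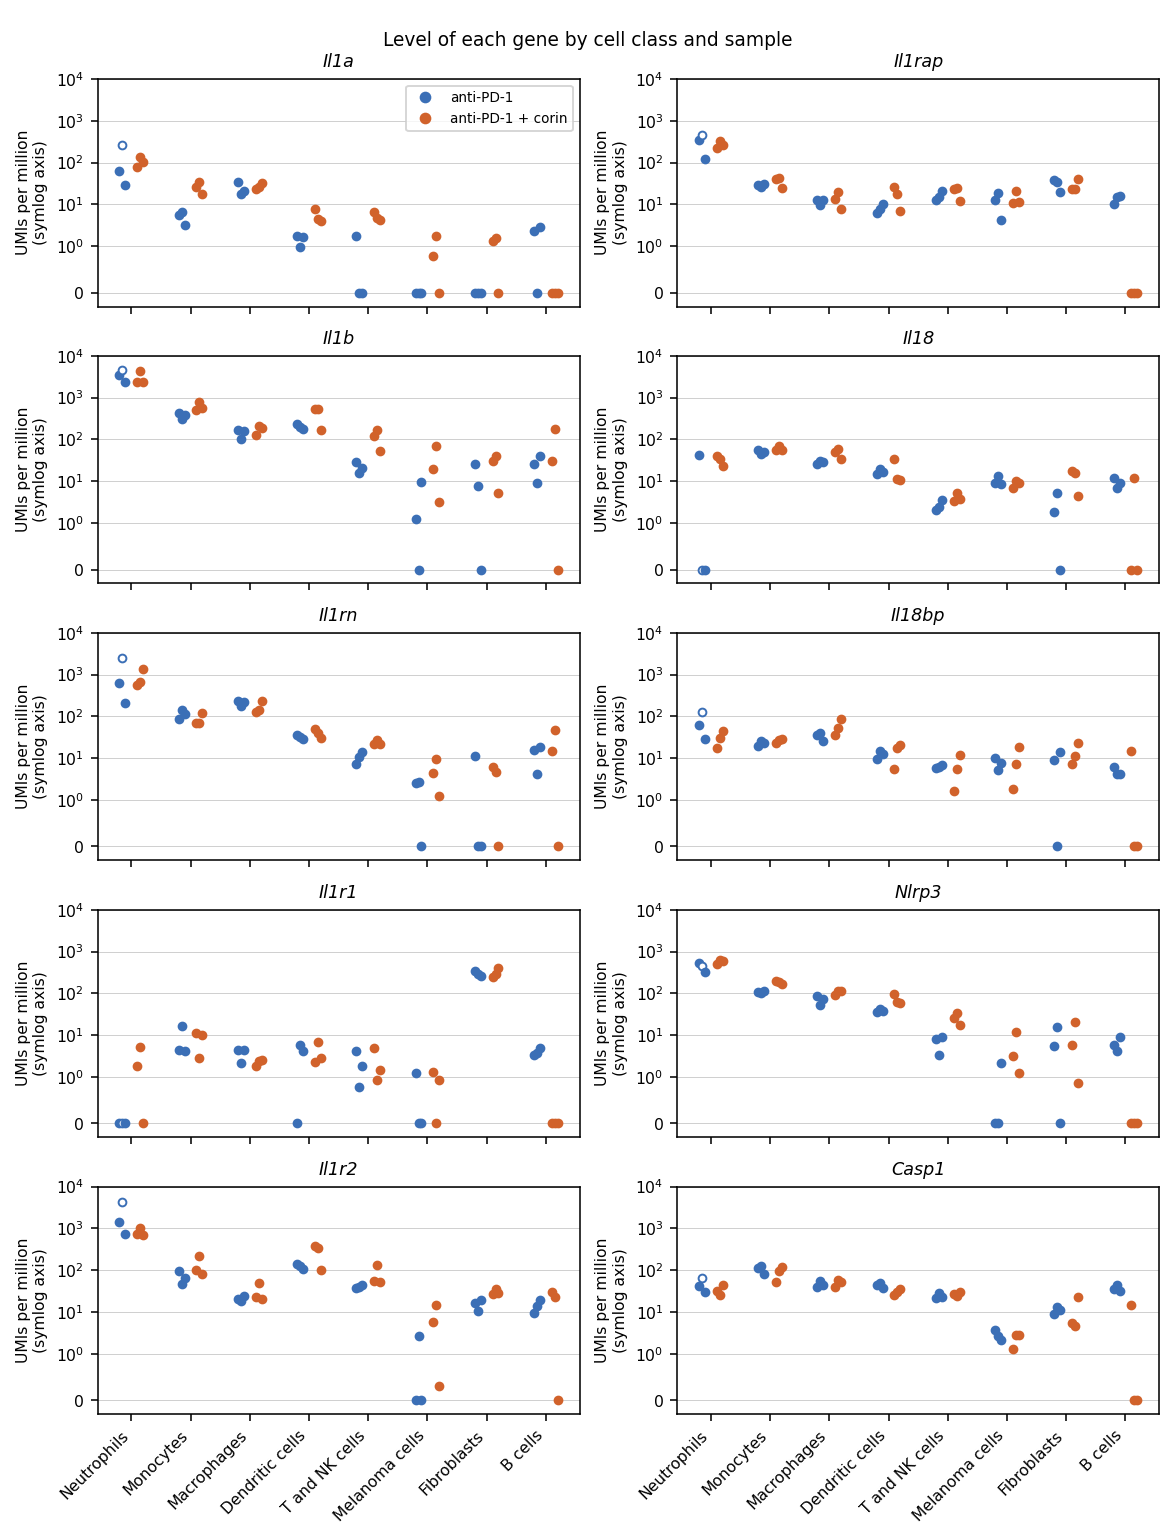
Level of each of the 10 genes in CPM (vertical axis, symmetric log scale that is linear below 1) in 8 cell classes (horizontal axis). Each point is 1 sample, blue for αPD-1 and orange for αPD-1 + corin, and an open point marks a class with under 10 cells in that sample; Il1b and Nlrp3 descend from neutrophils to monocytes, while Il1r1 stands out in fibroblasts at 242 to 406.

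Over 47 sums of 1 class in 1 sample, the genes most like Il1b among 6366 genes were Nlrp3 (r = 0.948), Cxcl2 (r = 0.927) and Csf3r (r = 0.919), where r is Pearson's correlation of log2 CPM. For Nlrp3 they were Clec4e (r = 0.961), Il1b and Ccr1 (r = 0.947). Casp1 had other neighbors, with Samhd1 first (r = 0.933), and so had Il18bp, with Znfx1 (r = 0.789). Il1rn was most like Cd300lf (r = 0.95), Il1a most like Fpr1 (r = 0.94), Il1r2 most like Dusp5 (r = 0.904) and Il18 most like Cln8 (r = 0.868). These are descriptions across sums that share samples, with no test.

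Which cells held the UMIs of a gene was set by level and by cell number together. With αPD-1, neutrophils held 7.18%, 3.98% and 4.07% of all Il1b UMIs, and with αPD-1 + corin, 37.0%, 77.5% and 12.4%. With αPD-1, macrophages held more, at 27.0%, 26.0% and 21.7%, and monocytes held 17.0%, 18.01% and 23.8%. The same shift was seen for Nlrp3, of which neutrophils held 1.27% to 3.77% with αPD-1 and 24.1%, 65.4% and 7.69% with αPD-1 + corin. For Il1r1 fibroblasts held the largest share in each sample, 68.5%, 65.3% and 44.7% with αPD-1 and 91.02%, 66.3% and 89.4% with αPD-1 + corin, and the mixed clusters held 34.2% in αPD-1 sample 3. Macrophages held 22.4%, 31.7% and 21.1% of Casp1 UMIs with αPD-1 and 65.3%, 46.6% and 31.4% with αPD-1 + corin, with overlap at 31.4% and 31.7%. Their share of Il18 was 33.8%, 50.2% and 28.9% against 64.9%, 50.8% and 46.4%, and that of Il18bp 46.4%, 50.4% and 31.2% against 76.9%, 46.8% and 47.6%, and the groups overlapped for both.

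**Figure D2:**
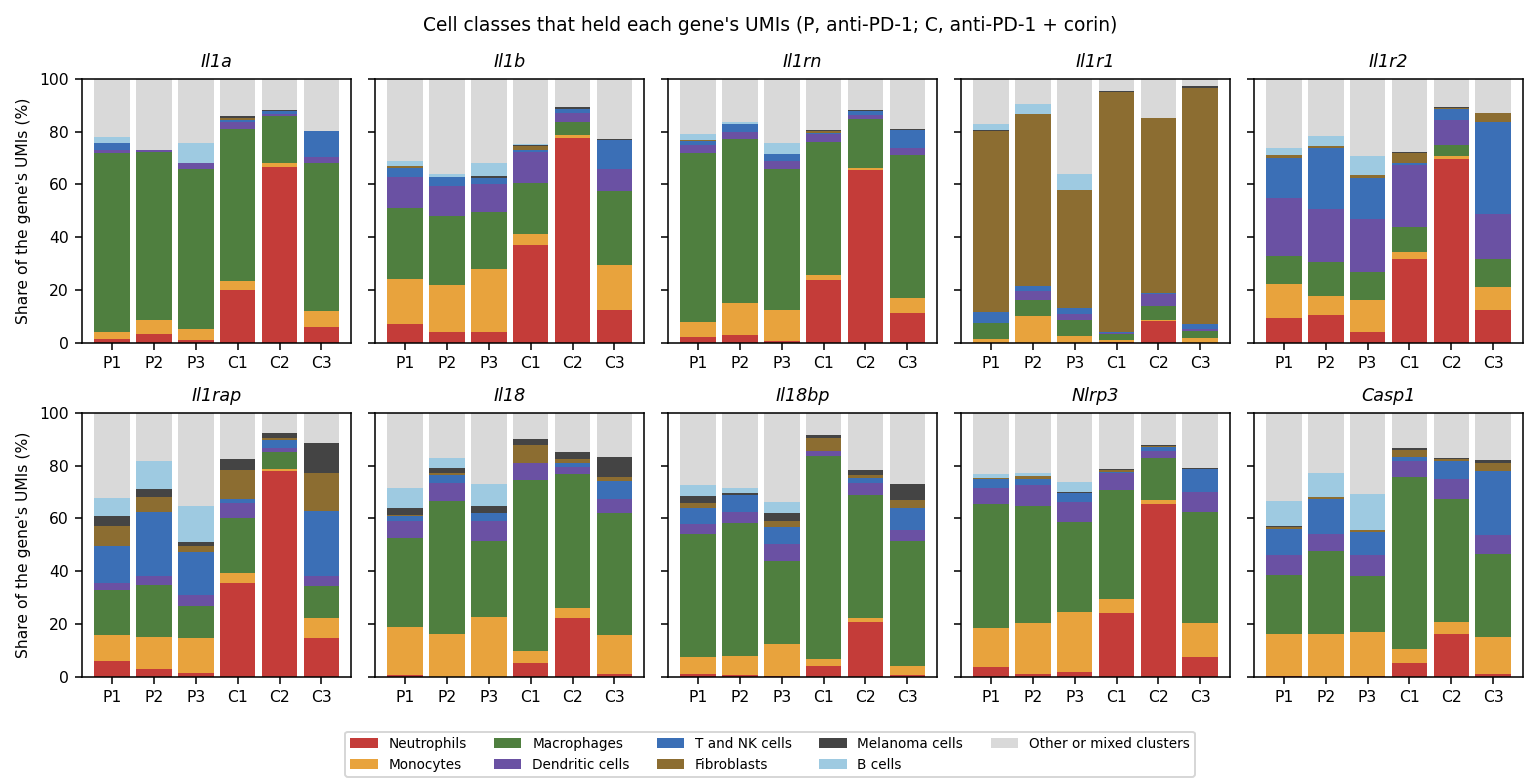
Share of a gene's UMIs (vertical axis, percent) held by each cell class in the 3 αPD-1 samples (P1 to P3) and the 3 αPD-1 + corin samples (C1 to C3), with the clusters left unnamed or mixed in grey. The neutrophil share of Il1b is 12.4% to 77.5% in C1 to C3 and at most 7.18% in P1 to P3.

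In all kept cells together, Il1b stood at 123, 109 and 118 CPM with αPD-1 and at 314, 1263 and 152 CPM with αPD-1 + corin. The groups did not overlap, and the second αPD-1 + corin sample, which had the most neutrophils, was far above the other two. The log2 difference, αPD-1 + corin minus αPD-1 on counts scaled by the trimmed mean of M values, was 2.44 ± 0.77 (SE), with an adjusted p of 0.0739 in edgeR's quasi-likelihood test. Compared with plain CPM, this scaling moved the log2 difference of every gene by 0.161 in macrophages, 0.231 in neutrophils and −0.164 in B cells, and by −0.0019 to 0.0941 in the other sums. Nlrp3 had 36.1, 33.2 and 35.9 CPM against 101, 214 and 60.6 CPM, and it was the only 1 of the 10 members that passed (1.95 ± 0.47, adjusted p = 0.0409), in a comparison that called 16.1% of 15676 genes (6.84% higher). At an unadjusted p under 0.05, 9 members passed, and DESeq2 called 9. The groups did not overlap for 5 members, Il1a, Il1b, Il1rn, Il1r2 and Nlrp3, and for 44.5% of all genes tested. The call on Nlrp3 was lost without any 1 of the αPD-1 samples or without αPD-1 + corin sample 1 (adjusted p 0.062 to 0.142). Casp1 had 35.1, 49.0 and 35.0 CPM against 28.9, 36.4 and 37.8 CPM, with a log2 difference of −0.12 ± 0.17 (adjusted p = 0.646). In such sums of all cells, a change in the number of cells of a type and a change in RNA per cell cannot be told apart, so the remaining comparisons were made within classes.

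In monocytes, Il1a and Nlrp3 were higher with αPD-1 + corin. Il1a had 5.51, 6.66 and 3.29 CPM with αPD-1 and 25.3, 33.4 and 17.9 CPM with αPD-1 + corin, and the groups did not overlap. These levels rest on 16 and 53 UMIs in all. The log2 difference of Il1a was 2.21 ± 0.39 (SE), with an adjusted p of 0.0188. The inflammasome sensor Nlrp3 had 109, 99.9 and 112 CPM against 201, 189 and 170 CPM, again without overlap, and rose by a log2 difference of 0.81 ± 0.14 (adjusted p = 0.0185). Il1b had 422, 310 and 386 CPM against 502, 796 and 580 CPM. Its groups did not overlap either, but with a log2 difference of 0.75 ± 0.17 it had an adjusted p of 0.0534. Of 9 members tested in monocytes, 2 were called, both higher, where the test called 1.26% of 7692 genes (0.702% higher). The groups did not overlap for 3 of the 10 members, against 22.1% of all genes tested.

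The other members in monocytes were not called. The decoy receptor Il1r2 had 98.1, 45.7 and 64.1 CPM against 100, 220 and 83.7 CPM (log2 difference 0.85 ± 0.33, adjusted p = 0.216). Il1rn, at 88.2, 145 and 113 CPM against 68.2, 69.6 and 124 CPM, had a log2 difference of −0.35 ± 0.24 (adjusted p = 0.519). Casp1, at 112, 125 and 81.4 CPM against 52.8, 94.7 and 120 CPM, had one of −0.24 ± 0.26 (adjusted p = 0.7). Il18 lay at 44.7 to 55.1 CPM against 54.8 to 69.6 CPM. Nlrp3, Il1a and Il1b were thus higher without overlap, while Il1r2, Il1rn, Casp1 and Il18 overlapped. Of all genes tested in monocytes, 22.1% did not overlap.

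Both monocyte calls depended on the samples. Without any 1 of the αPD-1 samples, or without αPD-1 + corin sample 1 or 2, the adjusted p of Il1a was 0.0765 to 0.1 and that of Nlrp3 was 0.0522 to 0.123, with log2 differences of 1.94 to 2.47 and 0.76 to 0.85. Without αPD-1 + corin sample 3, 4 members were called, Il1b and Il1r2 beside these. Among αPD-1 + corin monocytes, UMIs of the neutrophil markers S100a8 and S100a9 were more frequent. Together they came to 18.7, 7.61 and 132 CPM with αPD-1 and to 2637, 941 and 337 CPM with αPD-1 + corin. The 12 neutrophil markers, which include both, summed to 686 to 710 CPM against 996 to 3109 CPM. Of these 12, 2 were higher without overlap and 1 was lower, where 22.1% of all genes tested did not overlap. When cells with 2 or more such S100a8 and S100a9 UMIs were left out, the log2 difference was 0.81 ± 0.17 for Nlrp3 (adjusted p = 0.0451), 0.84 ± 0.18 for Il1b (0.0442) and 1.85 ± 0.48 for Il1a (0.0974). Cells with 1 such UMI were kept, and S100a8 itself was still higher there, by 2.04 ± 0.38 (adjusted p = 0.025 in edgeR), against 4.63 ± 0.66 in all monocytes. Il1b in the cells that remained was 387, 313 and 374 CPM against 520, 859 and 569 CPM. The genes induced by tissue dissociation moved the other way. Their 15 genes summed to 26130, 24740 and 21040 CPM with αPD-1 and 13370, 14290 and 16400 CPM with αPD-1 + corin in monocytes, and their part in these differences was not tested.

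At a fixed depth of 1000 UMIs per cell, an Il1b UMI was found in 17.9%, 19.7% and 20.3% of monocytes with αPD-1 and in 29.2%, 45.7% and 26.2% with αPD-1 + corin. Before thinning the shares were 29.8% to 38.2% and 37.9% to 67.1%, at median depths of 3598.5 and 3265.5 UMIs. Nlrp3 was found in 10.5%, 7.73% and 8.96% of thinned monocytes against 19.1%, 14.3% and 12%. In thinned B cells the shares were 0.846% and 3.00% for Il1b and 0.202% and 0% for Nlrp3.

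In macrophages, whose sums held 2755843 to 15497777 UMIs per sample, 0 of 10 members were called, where edgeR called 0.14% of 11423 genes. Nlrp3 had 84.3, 53.1 and 74.4 CPM with αPD-1 and 89.7, 115 and 112 CPM with αPD-1 + corin, without overlap but with a narrow gap. Its log2 difference was 0.74 ± 0.20 (SE), with an adjusted p of 0.171. Il18 had 25.3, 31.2 and 28.7 CPM against 49.4, 59.6 and 34.1 CPM, also without overlap (0.91 ± 0.21, adjusted p = 0.134). Il18bp, the IL-18 inhibitor, had 35.1, 39.9 and 26.1 CPM against 35.0, 52.7 and 87.2 CPM (0.92 ± 0.31, adjusted p = 0.224). At an unadjusted p under 0.05, 3 members passed. DESeq2 called 2, Il18 (adjusted p = 0.022) and Nlrp3 (0.0495). Without αPD-1 + corin sample 3, edgeR called these 2 and Il1r2, at adjusted p = 0.00132 for Il18 and 0.0254 for Nlrp3.

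Il1b in macrophages had 166, 102 and 155 CPM against 131, 208 and 187 CPM, and the groups overlapped (log2 difference 0.47 ± 0.23, adjusted p = 0.338). With cells that held 2 or more S100a8 and S100a9 UMIs left out, the log2 difference of Il1b was 0.06 ± 0.29. That of S100a8 was still 2.01 ± 0.34 (adjusted p = 0.0772 in edgeR). Il1rn had 238, 173 and 223 CPM against 127, 142 and 230 CPM (−0.19 ± 0.24, adjusted p = 0.688). Casp1 had 39.4, 55.9 and 44.6 CPM against 40.5, 57.4 and 52.0 CPM (0.25 ± 0.18, adjusted p = 0.482). The groups did not overlap for 2 of the 10 members, and for 26.6% of all genes tested. Of the dissociation genes, 9 of 15 were lower without overlap in macrophages of the αPD-1 + corin samples.

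**Figure D3:**
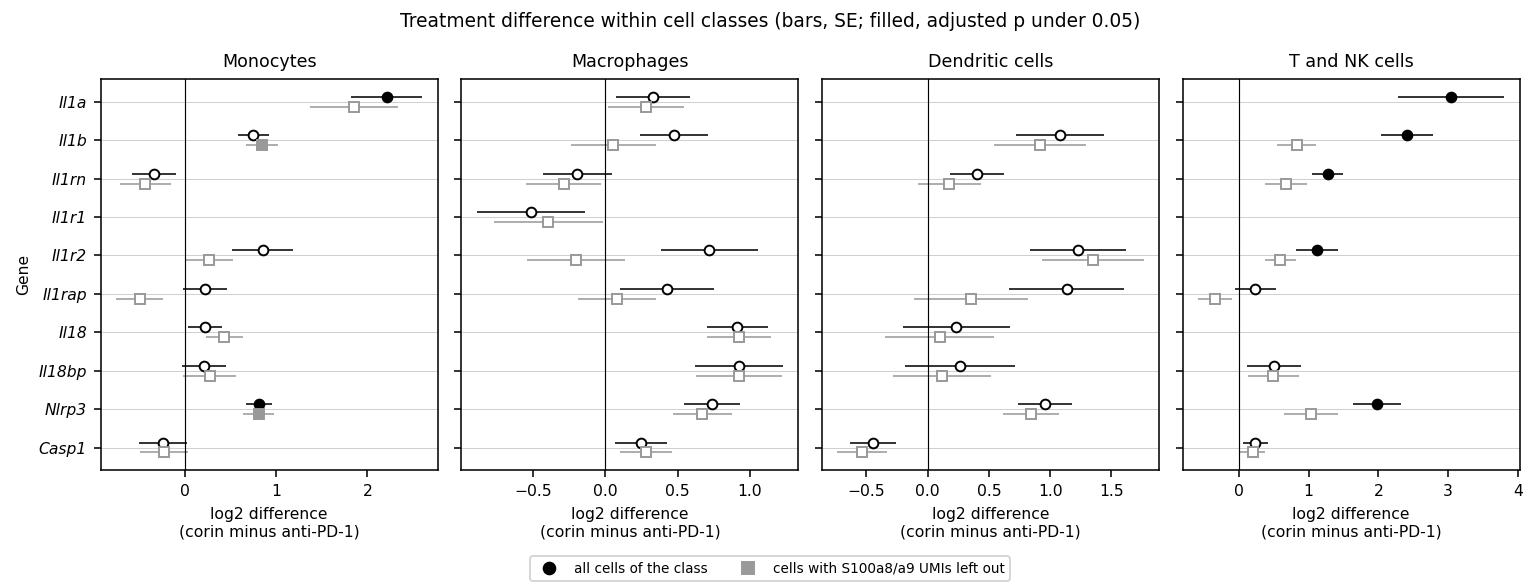
Log2 difference between αPD-1 + corin and αPD-1 (horizontal axis) of each member tested (vertical axis) in monocytes, macrophages, dendritic cells and T and NK cells, with the SE as bars and filled symbols for an adjusted p under 0.05. Circles use all cells of the class and squares leave out cells with 2 or more S100a8 and S100a9 UMIs; in T and NK cells the 5 filled circles have no filled square beside them, and in monocytes Nlrp3 stays filled.

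The treatment differences of monocytes and macrophages were compared directly, in a fit with a term for each sample. Of the 10 members 0 were called, where the fit called 0.18% of 10536 genes. The difference of Il1a was larger in monocytes by 1.86 ± 0.46 on the log2 scale, with an adjusted p of 0.12, which was 0.00776 without αPD-1 + corin sample 3. That of Nlrp3 was larger by 0.06 ± 0.22 (adjusted p = 0.965), that of Il1b by 0.25 ± 0.19 (0.73), and that of Il18 was smaller, at −0.61 ± 0.25 (0.448). At an unadjusted p under 0.05, 3 members passed. A change particular to monocytes was thus not shown for any of the genes.

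The macrophages, 829, 852 and 708 cells with αPD-1 and 4118, 1105 and 1233 with αPD-1 + corin, were spread over 5 clusters. The cluster led by Lyve1 and Folr2, genes of resident perivascular macrophages, had 90, 86 and 68 cells with αPD-1 and 2145, 405 and 134 cells with αPD-1 + corin. It was the largest of the 5 macrophage clusters in αPD-1 + corin samples 1 and 2. The cluster led by Mmp12 and Arg1 had 241, 260 and 248 against 1601, 376 and 294 cells. The cluster led by Camk1d and Gphn, with 357, 364 and 281 against 278, 221 and 664 cells, was the largest of the 5 macrophage clusters in each αPD-1 sample and in αPD-1 + corin sample 3. A small cluster with Rsad2 and Cxcl10, genes of the interferon response, had 42 to 56 against 63 to 88 cells, and 1 with Frmd4b and Pdgfc had 59 to 99 against 26 to 53 cells.

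The IL-1 genes were unevenly spread over these clusters. Il1b had its highest mean in the Rsad2 Cxcl10 cluster, at 373, 497 and 252 CPM with αPD-1 and 446, 705 and 718 CPM with αPD-1 + corin. The Lyve1 Folr2 cluster had the lowest mean, at 16.3, 43.4 and 30.3 CPM against 62.8, 142 and 23.1 CPM. Il1rn had the same 2 clusters at its ends, at 476 to 709 CPM and 19.3 to 67.0 CPM over the 6 samples. Il18 was arranged differently, with 43.5 to 88.2 CPM in the Lyve1 Folr2 cluster and 16.6 to 35.8 CPM in the Camk1d Gphn and Mmp12 Arg1 clusters. In the small Rsad2 Cxcl10 and Frmd4b Pdgfc clusters, with 4 to 25 and 0 to 16 Il18 UMIs per sample, it ranged from 21.04 to 86.0 CPM and from 0 to 103 CPM. The mixed cluster led by H2-Ab1 and Mgl2, which holds macrophage and dendritic cell markers and was left out of the class, had 320 to 512 CPM of Il1b against 440 to 1231 CPM. In the Rsad2 Cxcl10 cluster the neutrophil markers S100a8 and S100a9 came to 0, 4.21 and 5.85 CPM against 1297, 3855 and 297.5 CPM. In the mixed cluster they came to 3.92, 8.41 and 4.75 CPM against 3916, 5048 and 250.5 CPM. Their part in the Il1b of these clusters was not tested.

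Within the clusters, 0 members were called in any of these 6, while edgeR called 0.0109% of the genes tested in the Mmp12 Arg1 cluster, 1.9% in the Lyve1 Folr2 cluster, 0.012% in the Camk1d Gphn cluster, 0.264% in the Rsad2 Cxcl10 cluster, 0% in the Frmd4b Pdgfc cluster and 0.0895% in the mixed cluster. At an unadjusted p under 0.05, 3, 5, 2, 3, 0 and 6 members passed, and DESeq2 called 1, in the mixed cluster. Nlrp3 was higher without overlap in 3 of the 5 macrophage clusters. The share of all genes without overlap was not computed within single clusters, and it was 26.6% in macrophages as a whole. In the Mmp12 Arg1 cluster Nlrp3 had 94.3, 45.5 and 80.1 CPM against 139, 132 and 115 CPM. In the Camk1d Gphn cluster it had 93.5, 64.9 and 63.9 CPM against 107, 125 and 98.0 CPM, and in the Rsad2 Cxcl10 cluster 111, 80.0 and 111 CPM against 155, 220 and 283 CPM. Their adjusted p-values were 0.407, 0.383 and 0.133. In the Lyve1 Folr2 cluster the groups overlapped, at 29.0, 25.7 and 63.4 CPM against 57.6, 85.8 and 66.6 CPM (adjusted p = 0.0985). In the mixed cluster it had 84.3, 94.0 and 82.4 CPM against 217, 220 and 130 CPM (adjusted p = 0.0656). Il1b in the Mmp12 Arg1 cluster, at 321, 53.7 and 260 CPM against 239, 240 and 260 CPM, varied more among the αPD-1 samples than between the groups.

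**Figure D4:**
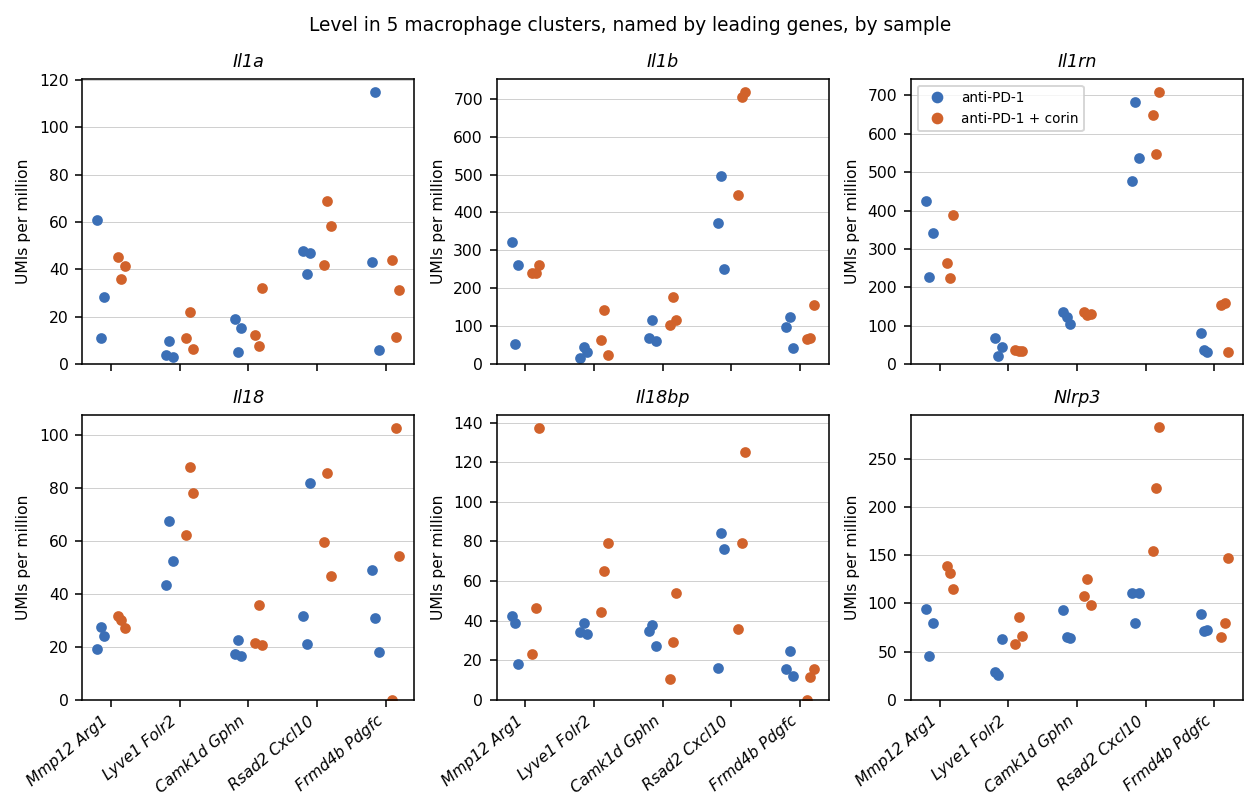
Level of 6 members in CPM (vertical axis, linear) in 5 macrophage clusters named by their leading genes (horizontal axis), 1 point per sample, blue for αPD-1 and orange for αPD-1 + corin. The means of Il1b and Il1rn are highest in the Rsad2 Cxcl10 cluster and lowest in the Lyve1 Folr2 cluster, where Il18 lies at 43.5 to 88.2; in the Frmd4b Pdgfc cluster Il18 spans 0 to 103.

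In dendritic cells, 0 of 8 members were called by edgeR, where 0.299% of 9361 genes were, although 5 had an unadjusted p under 0.05. DESeq2 called 0. Nlrp3 had 35.6, 42.9 and 38.5 CPM with αPD-1 and 94.8, 62.4 and 58.9 CPM with αPD-1 + corin, without overlap (log2 difference 0.96 ± 0.22, adjusted p = 0.123). Il1b had 232, 204 and 177 CPM against 548, 523 and 167 CPM, and Il1r2 had 138, 126 and 106 CPM against 382, 344 and 99.3 CPM. For both genes, αPD-1 + corin samples 1 and 2 were high and sample 3 was below all 3 αPD-1 samples, so that their log2 differences of 1.08 ± 0.36 and 1.23 ± 0.39 had adjusted p-values of 0.328 and 0.318. Without sample 3, they were 1.47 and 1.64 with adjusted p-values of 0.000581 and 0.000437, and the adjusted p of Nlrp3 was 0.0229. The S100a8 and S100a9 UMIs of dendritic cells were also highest in samples 1 and 2, at 1027, 897 and 219 CPM against 11.7 to 84.5 CPM with αPD-1. With the cells holding 2 or more of them left out, the log2 differences of Il1b and Il1r2 were 0.92 ± 0.38 and 1.35 ± 0.42 (adjusted p = 0.481 and 0.307), and that of Nlrp3 was 0.84 ± 0.23 (0.263).

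Casp1 went the other way in dendritic cells, at 43.6, 48.7 and 38.5 CPM against 26.1, 30.3 and 35.8 CPM. The groups did not overlap, and the log2 difference was −0.45 ± 0.19 (adjusted p = 0.445). The difference of Casp1 between the treatments was lower in dendritic cells than in macrophages by 0.70 ± 0.23 on the log2 scale (adjusted p = 0.428), in a fit that called 0 of 10 members, with 2 at an unadjusted p under 0.05, and 0.0608% of 11520 genes. For Il1b that contrast was 0.46 ± 0.42 (adjusted p = 0.775). Non-overlap was seen for 16.1% of genes tested in dendritic cells. At 1000 UMIs per cell, Il1b was found in 9.42%, 10.8% and 9.91% of dendritic cells against 29.3%, 24.1% and 10.7% (unthinned 20.6% to 26.2% and 25.2% to 47.6%, median depths 4969 and 3887 UMIs).

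Neutrophils were tested on cells with at least 200 genes, since 1 αPD-1 sample had 7 neutrophils with at least 600 genes. This gave 17, 14 and 12 cells with αPD-1 and 1104, 2031 and 285 with αPD-1 + corin. The αPD-1 sums held few counts, so that large differences could go unseen. In the neutrophils with at least 600 genes, the B cell markers summed to 1521, 1851 and 4808 CPM with αPD-1 and 330.2, 152 and 11.3 CPM with αPD-1 + corin, and with at least 200 genes, to 0 CPM and 9.14 to 107 CPM. Il1b had 6463, 3599 and 3218 CPM against 5380, 7750 and 5628 CPM (log2 difference 0.73 ± 0.38, adjusted p = 0.495), and Nlrp3 had 1145, 831 and 600 CPM against 923, 992 and 996 CPM (0.39 ± 0.35, adjusted p = 0.725). The groups overlapped for both genes. The decoy receptor Il1r2 was lower without overlap, at 4132, 2658 and 1855 CPM against 1501, 1692 and 1289 CPM. Its log2 difference was −0.72 ± 0.36 (adjusted p = 0.46), and it was 0.08 without αPD-1 sample 1. The accessory chain Il1rap was higher without overlap, at 409, 388 and 327 CPM against 555, 548 and 530 CPM (0.76 ± 0.38, adjusted p = 0.46). None of the 7 members tested was called, 0 had an unadjusted p under 0.05 and DESeq2 called 0, where edgeR called 0.191% of 2099 genes and 20.3% did not overlap.

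Among T and NK cells, 5 of 8 members tested were called, all higher, in a comparison that called 18.2% of 10533 genes (7.77% higher). They were Il1b (2.41 ± 0.37, adjusted p = 0.00162), Nlrp3 (1.98 ± 0.34, 0.00329), Il1rn (1.27 ± 0.23, 0.00385), Il1a (3.04 ± 0.77, 0.0188) and Il1r2 (1.12 ± 0.30, 0.024), all as log2 difference ± SE. The groups did not overlap for these 5, as for 35.9% of all genes tested. Il1b had 29.0, 15.8 and 20.4 CPM against 119, 170 and 54.3 CPM, far below the monocytes of the same samples. The 12 neutrophil markers in these cells summed to 225, 174 and 181 CPM with αPD-1 and 1391, 1356 and 334 CPM with αPD-1 + corin, and 7 of the 12 were higher without overlap. S100a8 and S100a9 together had 30.4, 2.62 and 3.63 CPM against 1055, 1017 and 122 CPM. None of the 5 was called once cells with 2 or more S100a8 and S100a9 UMIs were left out. Il1b was then at 24.6, 13.9 and 20.1 CPM against 12.02, 28.6 and 40.2 CPM, with overlap (0.83 ± 0.28, adjusted p = 0.064), Nlrp3 had 1.04 ± 0.39 (0.0896), Il1r2 0.59 ± 0.22 (0.0855) and Il1rn 0.68 ± 0.30 (0.15), and Il1a had too few UMIs to be tested. At 1000 UMIs per cell, Il1b was found in 1.18% of T and NK cells with αPD-1 and 3.20% with αPD-1 + corin (unthinned 2.80% and 7.69%), close to the B cell shares.

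The UMIs of S100a8 and S100a9 also give a scale for Il1b. The scale was taken from the neutrophils with at least 200 genes of the same sample. If each such UMI came with as much Il1b as there, they would bring 71.5%, 72.8% and 26.2% of the Il1b measured in the T and NK cells of the αPD-1 + corin samples. For macrophages the figures were 28.9%, 40.2% and 3.99%, for monocytes 42.2%, 14.3% and 6.76%, and for dendritic cells 15.1%, 20.8% and 15.3%. Among these 4 classes of the αPD-1 samples the highest was 21.3%, in T and NK cells of sample 1. For the Rsad2 Cxcl10 cluster of the αPD-1 + corin samples the figures were 23.4%, 66.3% and 4.83%. For their mixed cluster led by H2-Ab1 and Mgl2 they were 38.7%, 49.8% and 6.63%. With αPD-1, the ratio rests on 17, 14 and 12 neutrophils.

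**Figure D5:**
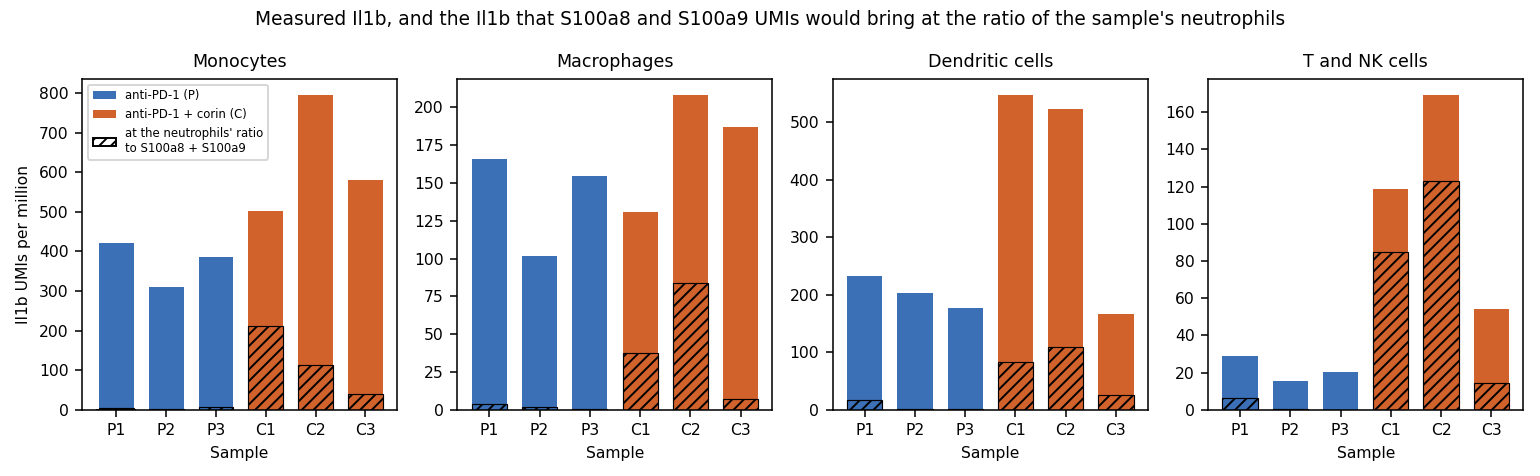
Il1b in CPM (vertical axis, linear from 0) in 4 cell classes by sample (P for αPD-1 and C for αPD-1 + corin). Hatched bars give the Il1b that the S100a8 and S100a9 UMIs of that class would bring, at the ratio found in the sample's neutrophils with at least 200 genes. The hatched part is 71.5% and 72.8% of the bar in T and NK cells of C1 and C2 and 6.76% in monocytes of C3.

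Among fibroblasts, the class with the signaling receptor, Il1r1 had a log2 difference of 0.07 ± 0.30 (adjusted p = 0.899), and the sign turned without αPD-1 + corin sample 3 (−0.17). Il1r2 was higher without overlap, at 16.5, 10.5 and 20.0 CPM against 27.6, 36.3 and 28.8 CPM (0.94 ± 0.36, adjusted p = 0.153). In all, 0 of 4 members tested were called, with 1 at an unadjusted p under 0.05, where edgeR called 2.46% of 6876 genes and the groups did not overlap for 25.6%. Melanoma cells had 0 of 4 members called and 0% of 9480 genes, with 675 genes and 1 member at an unadjusted p under 0.05 and 12.5% of genes without overlap. In B cells, which numbered 11 to 50 in the αPD-1 + corin samples, 0 of 4 members were called and 2 had an unadjusted p under 0.05, where edgeR called 1.91% of genes and 26.7% did not overlap. DESeq2 called 0 members in each of these 3 classes. Il1b in melanoma cells was at 1.26, 0 and 9.66 CPM against 20.0, 69.3 and 3.12 CPM (2.59 ± 1.08, adjusted p = 0.692).

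A list of 40 further pathway genes (adaptors, sensors, gasdermins, the IL-18 and IL-36 branches and the kinases below the receptors) had 39 in the files. Of these, 0 of 29 were called in monocytes, 0 of 34 in macrophages and 0 of 30 in dendritic cells, with 9, 11 and 1 at an unadjusted p under 0.05 and 1, 1 and 0 called by DESeq2. In these classes edgeR called 1.26%, 0.14% and 0.299% of all genes. In neutrophils 1 of 10 passed, where edgeR called 0.191% of 2099 genes. It was Il36g (Il1f9 in the files), an agonist of the IL-36 receptor, at 123, 221 and 164 CPM with αPD-1 and 845, 860 and 905 CPM with αPD-1 + corin (2.62 ± 0.44, adjusted p = 0.0195). The αPD-1 levels rest on 3, 4 and 3 UMIs, and without αPD-1 sample 1 edgeR called 0 genes in neutrophils. This gene was also among the leading genes of the neutrophil cluster. In the Lyve1 Folr2 macrophages Pycard, the adaptor between NLRP3 and caspase 1, rose from 216, 233 and 262 CPM to 493, 469 and 452 CPM (1.15 ± 0.16, adjusted p = 0.00903), the only 1 of 23 called there, where edgeR called 1.9% of all genes. In T and NK cells 6 of 30 were called, where the test called 18.2% of all genes, a share near that of the list. Ninj1, which mediates membrane rupture, rose by 1.06 ± 0.18 (adjusted p = 0.00281), Naip2 by 1.00 ± 0.19 (0.00522) and the IL-18 receptor chain Il18rap by 0.61 ± 0.12 (0.00599), and Txnip fell by 0.61 ± 0.14 (0.0106). These last 4 were also called without the cells holding S100a8 and S100a9 UMIs. Il18rap in T and NK cells had 71.6, 68.0 and 82.2 CPM against 117, 115 and 94.1 CPM.

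The second list held 24 genes that IL-1 is known to induce in many cells, some of which other signals induce too. In monocytes 5 of 17 were called, all higher, where the test called 1.26% of all genes (0.702% higher), and the median log2 difference of the 17 was 0.50, against 0.00 for all genes tested. The S100a8 and S100a9 UMIs of monocytes given above were higher in the same samples. Cxcl2, a neutrophil chemokine, had 1187, 1415 and 1932 CPM against 5373, 4724 and 2630.0 CPM (1.495 ± 0.22, adjusted p = 0.00946), in the same order of αPD-1 + corin samples as S100a8 and S100a9, and neutrophils with at least 200 genes had 16750 to 48950 CPM of it. Cxcl1 (3.24 ± 0.57, 0.0188), the monocyte chemokine Ccl2 (1.21 ± 0.21, 0.0188), Lcn2 (2.24 ± 0.40, 0.0194) and Ier3 (0.95 ± 0.18, 0.0235) were the other 4, the last 2 named although the naming rule takes 3. With the monocytes holding 2 or more S100a8 and S100a9 UMIs left out, the log2 difference was 1.37 ± 0.23 for Cxcl2 (adjusted p = 0.0188), 3.20 ± 0.59 for Cxcl1 (0.0239), 1.29 ± 0.24 for Ccl2 (0.0239) and 0.94 ± 0.18 for Ier3 (0.034), while Lcn2 was no longer called (0.97 ± 0.25, 0.0934). S100a8 was still higher in the monocytes that remained, as given above. In macrophages 1 of 19 was called, where the test called 0.14% of all genes. It was the acute phase gene Saa3, at 39.4, 19.5 and 57.0 CPM against 924, 464 and 339 CPM (4.08 ± 0.50, adjusted p = 0.0337). Its log2 difference was 4.12 ± 0.51 (0.0404) without cells holding 2 or more S100a8 and S100a9 UMIs. Fibroblasts, with the highest Il1r1, had 2 of 17 called, against 2.46% of all genes. Lcn2 had 22.0, 10.5 and 31.4 CPM against 282, 445 and 257 CPM (3.95 ± 0.39, 0.000645), and Cxcl5 had 82.5, 13.2 and 20.0 CPM against 250, 451 and 80.2 CPM (2.64 ± 0.63, 0.0463). Without such cells they were 3.99 ± 0.40 (0.000806) and 2.69 ± 0.65 (0.04998). None was called among 15 in dendritic cells, 14 in neutrophils and 7 in melanoma cells, where 7, 4 and 1 of them had an unadjusted p under 0.05 and DESeq2 called 0, 3 and 1. Of all genes, edgeR called 0.299%, 0.191% and 0% in these classes. In T and NK cells 11 of 17 were higher, where 7.77% of all genes were, led by Cxcl2 (3.07 ± 0.37, 0.000443), Ier3 (1.21 ± 0.15, 0.000524) and Cxcl1 (6.33 ± 0.90, 0.00106), beside the neutrophil markers given above. Without such cells Cxcl2 was 1.95 ± 0.23 (0.000388) and Ier3 0.70 ± 0.17 (0.0169), and Cxcl1 was not among the genes tested.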

How the data were processed

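Single-cell RNA-Seq (GEM-X 5′ kit, v3) was made from CD45+ cells of 6 B16-F10 tumor samples, 3 per group, after freezing, thawing, removal of dead cells and selection on CD45 beads, with 23000 cells loaded. The deposited files hold UMI counts per gene and barcode, which the authors made with Cell Ranger 8.0 and deposited without normalization, and every barcode had at least 500 UMIs. The submitters' processing notes name GRCm39. The gene list has older symbols than GENCODE vM39, and the annotation behind the counts was not settled.

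The limits of the study's methods were used for cells, 600 to 4000 genes and no more than 10% of UMIs from mitochondrial genes. Doublets were marked with Scrublet (scanpy 1.11.5) at 0.4% per 1000 cells and left out. Counts were transformed with sctransform 0.4.2 and clustered in Seurat 5.3.0 (20 components, resolution 0.8, 26 clusters) after the members and marker lists were taken out of the 3000 variable genes, which left 2798. A cluster was named from at least 3 markers of 1 class (in at least 10% of its cells, 1.5-fold over the rest with 10 CPM added, and 40% of the list), and was left as mixed where it held 50% of the list of another lineage. Classes are therefore rebuilt and may differ from those of the study.

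UMIs were summed per sample and class. Sums of at least 10 cells were tested with edgeR 4.0.16 (trimmed mean of M values, filterByExpr, quasi-likelihood, Benjamini-Hochberg over all genes tested, threshold 0.05), with DESeq2 1.42.0 as an alternative and R 4.3.3. Differences between classes used an interaction term. CPM values were not scaled further, and the log2 differences were. The study's own test treats cells as replicates and was not used. Neutrophils were tested on cells with at least 200 genes, and cells with 2 or more S100a8 and S100a9 UMIs were left out as a further alternative, both chosen after seeing the data. The 10 members and the lists were chosen with earlier results of these data known. From the lists, up to 3 genes per direction with the smallest adjusted p were named. On simulated data with 200 genes changed 4-fold, 183 were found in monocyte sums, 195 in macrophage sums, 192 in dendritic cell sums and 126 in neutrophil sums. False calls were 5, 10, 10 and 3. The simulation gave all genes of a class 1 common dispersion (0.0181 to 0.0769) and held no deviating sample. It therefore does not tell how often smaller differences, or differences among samples as uneven as these, would be found. Sums held 359226 to 1216138 UMIs in monocytes, 1026048 to 2224547 in dendritic cells and 18061 to 3859085 in neutrophils with at least 200 genes. Intervals and p-values do not cover mouse-to-mouse variation where samples share mice.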

Additional observations from a re-analysis of the deposited data

Results flagged for a closer look

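The treatment difference of Cxcl3, a neutrophil chemokine of the list of genes that IL-1 induces, differed between monocytes and macrophages by the interaction term. It was larger in monocytes by 1.76 ± 0.28 on the log2 scale (SE, n = 3 samples per group, adjusted p = 0.0181 in edgeR). Monocytes had 17.6, 13.3 and 28.0 CPM with αPD-1 and 138, 237 and 12.95 CPM with αPD-1 + corin, so 1 of the 3 αPD-1 + corin samples was below all αPD-1 samples. Macrophages had 185, 59.0 and 178 CPM against 249, 388 and 29.1 CPM. With the cells holding 2 or more S100a8 and S100a9 UMIs left out, the term was 0.67 ± 0.35 (adjusted p = 0.634). Cxcl3 was among the leading genes of the neutrophil cluster.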

How the results depend on the processing

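Counts of members called depended most on αPD-1 + corin sample 3. Counts over the macrophage clusters add up the calls of the single clusters, so 1 member can be counted in more than 1 of them. Without αPD-1 + corin sample 3, all-gene calls were 570 in monocytes, 2485 in macrophages, 246 in dendritic cells and 5068 over all kept cells. Leaving out 1 sample at a time gave 0 to 4 members in monocytes, 0 to 3 in macrophages, 0 to 4 in dendritic cells, 3 to 5 in T and NK cells, 0 to 7 over all kept cells, 0 to 5 over the macrophage clusters, and 0 to 1 and 0 to 2 for the differences between monocytes or dendritic cells and macrophages; each of these highest counts was found without αPD-1 + corin sample 3. Without the filter on low counts, 4 members were called in monocytes, 4 in macrophages, 4 in dendritic cells, 1 in melanoma cells and 2 over all kept cells. There were 12 calls over the macrophage clusters and 1 for monocytes against macrophages. In this setting all-gene calls were 794 in macrophages, 485 in dendritic cells, 108 in melanoma cells and 195 for monocytes against macrophages. DESeq2 called 2 in macrophages and 9 over all kept cells. With no upper limit on genes, 4 were called in monocytes, 2 in T and NK cells and 0 over all kept cells, 4 members had the same leading class, and 3 classes did not overlap in share. No cluster was named neutrophil in that setting (0 cells in each sample). The members led by neutrophils therefore could not keep their leading class there. In T and NK cells, 2 were called with no doublet removal, 3 with LogNormalize, 3 at resolution 0.4, 3 at resolution 1.2 and 0 without cells holding 2 or more S100a8 and S100a9 UMIs. With at least 200 genes, 3 were called over all kept cells. Samples of the same number did not deviate together (correlations −0.172 to 0.079). With 3 samples per group this check cannot exclude a pairing by number. With the replicate number as a block, 1 member was called in monocytes, 0 over all kept cells and 3 over the macrophage clusters.

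Signs turned for small differences. Il1rn in monocytes was 0.47 on the log2 scale at resolution 1.2. Casp1 in monocytes was 0.094 with no upper limit on genes and −0.64 to 0.088 when samples were left out, and over all kept cells it was −0.21 to 0.051. Il1r1 in fibroblasts was −0.17 to 0.27, Il1r2 in neutrophils −0.98 to 0.081, Nlrp3 in monocytes against macrophages −0.12 to 0.22 and Il1b in dendritic cells against macrophages −0.024 to 1.08. Values under an alternative were counted for the log2 differences of members chosen for reporting, without B cells and the single macrophage clusters. Of these, 532 kept their direction and side of the threshold, 43 lost a call, 39 gained one and 10 turned sign. The cause was not tested.

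Calls over all genes moved as well. Leaving out samples gave 4 to 570 in monocytes (97 with all samples), 0 to 2485 in macrophages (16), 6 to 246 in dendritic cells (28), 732 to 1876 in T and NK cells (1919), 0 to 8 in melanoma cells (0), 23 to 935 in fibroblasts (169), 58 to 5068 over all kept cells (2524), 0 to 7 in neutrophils (4), 1 to 407 for monocytes against macrophages (19) and 0 to 402 for dendritic cells against macrophages (7). The other alternatives gave, in the same order, 48 to 1288, 4 to 794, 25 to 485, 566 to 2430, 0 to 108, 45 to 570, 503 to 4257, 0 to 125, 0 to 195 and 0 to 191. Not run were dendritic cells with at least 200 genes or no upper limit, where the named class held 504 and 452 cells against 1818, and neutrophils in the other clusterings.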

Other observations

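Il33, another agonist of the IL-1 family and not among the 10 members, was a fibroblast gene like Il1r1. Fibroblasts had 154, 49.97 and 211 CPM with αPD-1 and 439, 472 and 283 CPM with αPD-1 + corin, without overlap (log2 difference 1.54 ± 0.40, adjusted p = 0.0559 in edgeR and 0.00581 in DESeq2), and no other class passed 3.79 CPM. Over all kept cells Il33 had 5.00, 1.62 and 4.98 CPM against 61.4, 15.3 and 15.0 CPM (3.09 ± 0.74, adjusted p = 0.041), beside fibroblast shares of 1.04% to 1.44% and 1.98% to 7.74%. Of 36 further pathway genes tested over all kept cells, 2 were higher, Il33 and Il36g (Il1f9 in the files), and 2 were lower, where the test called 16.1% of all genes, a larger share than that of the list. Nek7, which binds NLRP3 in inflammasome assembly, had 106, 101 and 111 CPM against 46.9, 56.6 and 63.3 CPM (−0.84 ± 0.12, adjusted p = 0.0158), and the kinase gene Ikbkb had a log2 difference of −0.46 ± 0.10 (0.0336). Of the genes that IL-1 induces, 10 of 22 were higher over all kept cells, where 6.84% of all genes were, beside the change in neutrophil and fibroblast shares, led by Mmp3 (2.10 ± 0.32, 0.0178), Lcn2 (3.69 ± 0.62, 0.0214) and Bcl2a1b (0.83 ± 0.16, 0.0305).

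In the Lyve1 Folr2 macrophages, 5 of 16 genes that IL-1 induces were higher with αPD-1 + corin, where edgeR called 1.9% of all genes. The 12 neutrophil markers summed to 239, 193 and 176 CPM with αPD-1 and 494, 693 and 341 CPM with αPD-1 + corin in this cluster, and the 12 monocyte markers to 647, 627 and 2165 CPM against 4155, 5509 and 1070.0 CPM, and their part in these differences was not tested. Saa3 had 119.6, 65.9 and 251 CPM against 1462, 983 and 1381 CPM (3.33 ± 0.38, adjusted p = 0.00491), Ier3 had 283, 243 and 196 CPM against 509, 668 and 370 CPM (1.25 ± 0.24, 0.0312), and Cxcl1 had 10.9, 64.3 and 24.8 CPM against 116, 138 and 115 CPM (1.96 ± 0.40, 0.0368). The other 2 were Ptgs2 and Cxcl2. In the Mmp12 Arg1 macrophages Saa3 was the 1 of 19 called, where edgeR called 0.0109% of all genes. In the mixed cluster led by H2-Ab1 and Mgl2 it was Ccl2, 1 of 17, where edgeR called 0.0895%.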
